A study of Arabidopsis thaliana with 28 samples.

Results

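Cytosolic ribosomal protein genes of the Arabidopsis root were followed across 8 populations of sorted root tip cells. The 46 genes were taken from a list of gene identifiers that names large subunit, small subunit and acidic stalk proteins of the cytosolic ribosome, and all 46 were among the 33201 genes of the expression table. They fall into 19 large subunit genes, 21 small subunit genes and 6 stalk genes, and encode 24 proteins. Of these proteins 12 were represented by 2 genes and 5 by 3 genes, which gives 39 genes that have a paralog in the list, and 7 proteins were represented by 1 gene. All 46 genes passed the filter on low values, an FPKM (fragments per kilobase of transcript, scaled to the size of the library) of at least 1 in at least 3 samples.

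The cytosolic ribosome translates the messages of the nuclear genes. Its small subunit reads the messenger RNA, its large subunit joins the amino acids, and the acidic P-proteins form a stalk on the large subunit that recruits elongation factors. In plants each ribosomal protein is encoded by a small family of paralogs, and growing and dividing cells of the root tip are known to need many ribosomes.

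Roots of 5-day-old Col-0 seedlings were made into protoplasts, and the cells were sorted by fluorescence. Fluorescent cells came from AGL42:GFP for the stem cell niche (SCN, n = 4), CYCD6:GFP for the cortex endodermis initials (CEI, n = 3), CVP2:NLS-VENUS for the protophloem (Protophlo, n = 4), FEZ:FEZ-GFP for the initials of epidermis and lateral root cap (Epi/LRC, n = 3), the enhancer trap J2341 for the columella stem cells (CSCs, n = 3), TMO5:3xGFP for the xylem stem cells (Xyl, n = 4) and WOX5:GFP for the quiescent center (QC, n = 3). The non-stem cells (NSCs, n = 4) were cells without GFP from the AGL42:GFP line, labelled as meristematic. A population is therefore whatever cells a promoter or trap made fluorescent, the SCN is meant to include other stem cells sorted here, and each line carries its own transgene while NSCs share a line with the SCN alone. In bulk samples such as these, fewer cells of a type and less RNA per cell cannot be told apart.

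The step between low FPKM values implied libraries of about 8284836 to 33928230 fragments, with a median of 17145815. The marker TMO5 averaged 1081 FPKM in Xyl and WOX5 179 FPKM in QC. CVP2 averaged 1.79 FPKM in Protophlo and 19.0 FPKM in Xyl, and CYCD6;1 averaged 8.69 FPKM in CEI and 15.7 FPKM in CSCs, so each of these genes was higher in another population than in the one sorted with its promoter. The trap J2341 names no gene to check. Of 8 markers of differentiated root cells (EXPA7, COBL9, CASP1, XCP1, SUC2, APL, SMB and GL2), CASP1 of the endodermis and XCP1 of the xylem vessels averaged 571 and 228 FPKM in NSCs. XCP1, SUC2 and APL had their highest mean in NSCs. EXPA7, COBL9 and CASP1 had theirs in Protophlo, SMB in Epi/LRC and GL2 in QC. EXPA7 averaged 377 FPKM in Protophlo and 108 FPKM in SCN, against 49.4 FPKM in NSCs. COBL9 averaged 200, 146 and 10.6 FPKM in the same populations. CASP1 averaged 764 FPKM in Protophlo, where its samples ranged from 2.36 to 3040 FPKM. The summed FPKM of the 8 markers lay between 766 and 1126 in NSCs. CEI replicate 2, at 1132 FPKM, and Protophlo replicate 4, at 3694 FPKM, stood apart from the other replicates of their populations.

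The stretches of promoter below show what paralogs of the same protein share and do not share upstream of their start. They belong to proteins whose paralogs differed between populations. Capitals mark TGGGCC or TGGGCT, on either strand, which are known as site II elements of plant ribosomal protein promoters. AAACCCTA, known as the telo box, was also searched on both strands and is in none of these stretches. Each stretch runs 5′ to 3′ on the strand of the gene, holds all these matches of the promoter with a few bases on either side, and was read from the TAIR10.1 genome with the gene starts of RefSeq.
RPL3A, chr1:16266397-16266449 (+): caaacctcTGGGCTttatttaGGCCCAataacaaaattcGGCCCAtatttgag
RPL3B, chr1:22723223-22723277 (-): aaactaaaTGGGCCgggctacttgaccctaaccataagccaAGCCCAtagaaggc
RPL10A, chr1:4888064-4888085 (+): acaatcgaTGGGCCctaaccct
RPL10B, chr1:9321530-9321569 (+): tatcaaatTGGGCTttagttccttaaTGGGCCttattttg
RPL10C, chr1:24839072-24839089 (+): tatctaaaTGGGCCtagc
RPS6A, chr4:15347805-15347826 (-): ggccatcgGGCCCAtaatcgca
RPS6B, chr5:3260282-3260320 (-): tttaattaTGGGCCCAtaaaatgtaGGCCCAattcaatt
AT2G40010 (RPP0), chr2:16710801-16710853 (-): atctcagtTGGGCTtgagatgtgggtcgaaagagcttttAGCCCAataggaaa
AT3G09200 (RPP0), chr3:2825244-2825265 (-): tggttaaaTGGGCCtaatttgt
AT3G11250 (RPP0), chr3:3521247-3521287 (+): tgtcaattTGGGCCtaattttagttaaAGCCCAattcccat

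In the 250 bases before the start, 27 of the 46 genes (58.7%) held TGGGCC or TGGGCT, against 19.2% of the promoters of 27444 nuclear protein-coding genes. At least 2 matches, overlapping ones included, were found in 22 of the 46 genes, against 12.0% of all promoters. AAACCCTA was found in 8 genes (17.4%), against 4.49% of all promoters, and 5 genes (10.9%) held both kinds of match, against 1.36%. A match is a description of the letters and not a site in use. RPL3A and RPL3B both held matches, with 3 and 2 of them. RPSAA held a telo box alone. Its paralog RPSAb, which had the largest difference in Xyl described here, held neither.

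Because paralogs are alike in sequence, the share of each transcript that also occurs elsewhere was measured in stretches of 100 bases. In 39 of the 46 genes no stretch was shared with another gene or locus. AT1G33120 and PGY2, which both encode RPL9 and lie close together on chromosome 1, shared 50.8% and 54.8% of their stretches, and their split is therefore uncertain. XW6 (RPS2) shared 11.3% of its stretches with AT1G58684, AT1G58983 and AT1G59359. The other 4 genes with a shared stretch shared at most 2.54%. Whether reads were counted by strand is not given in the sources used here. Of the 46 genes 12 overlap another annotated gene, and 8 overlap an antisense one, among them RPL3B, AT2G40010 (RPP0) and RPS18C. Reads of the antisense partner cannot be told apart from theirs if strand was not used. RPSAb, the gene at 2.54%, overlaps AT3G04780 on the same strand, and AT3G09200 (RPP0) overlaps AT3G09210. RPS13A and RPS28 also overlap a gene on the same strand. Strand would not separate reads from such an overlap.

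Ribosomal protein genes made up more of the summed FPKM in Xyl than in any other population. Summed over the 46 genes they held 6.76%, 6.83%, 7.76% and 8.26% of the summed FPKM in the 4 Xyl samples, against 1.16%, 1.19%, 1.09% and 0.662% in the 4 NSC samples. The groups did not overlap. In Epi/LRC the sum was 5.22%, 6.43% and 2.66%, and in CSCs 4.57%, 4.72% and 4.17%. CEI samples were at 5.60%, 1.40% and 4.25%, QC samples at 3.84%, 2.30% and 2.54%, and SCN samples at 1.22%, 4.35%, 3.34% and 2.17%. Protophlo samples, at 1.24%, 0.820%, 1.37% and 0.409%, overlapped with NSCs. By mean the order was Xyl (7.40 ± 0.73%, SD), Epi/LRC (4.77 ± 1.93%), CSCs (4.49 ± 0.28%), CEI (3.75 ± 2.14%), QC (2.89 ± 0.83%), SCN (2.77 ± 1.36%), NSCs (1.02 ± 0.245%) and Protophlo (0.958 ± 0.434%). The samples of neighbours in this order overlapped, except for Xyl over Epi/LRC and SCN over NSCs. No test was made on this sum. With size factors the mean in CSCs was 3.16%, below that of CEI at 3.90%. The Xyl samples were then at 5.97% to 8.81% and overlapped with CEI, which reached 6.53%, and Epi/LRC, which reached 6.30%. The means of SCN (2.39%) and QC (2.22%) and of NSCs (1.09%) and Protophlo (1.07%) lay close together. Xyl still had the highest mean, at 7.29%.

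**Figure D1:**
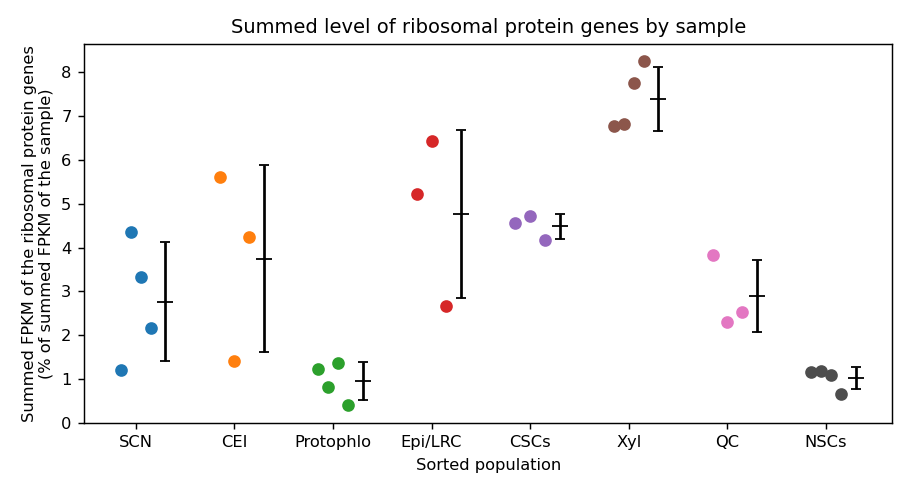
Summed FPKM of the 46 ribosomal protein genes as a percent of the summed FPKM of each sample (y axis) in the 7 stem cell populations and NSCs (x axis). Points are samples, and the dash with its bar is the mean ± SD (n = 3 or 4). The Xyl samples sit between 6.76% and 8.26%, above every sample of the other populations, and the Protophlo samples, from 0.409% to 1.37%, overlap with the NSC samples. With size factors, which are not drawn, Xyl samples overlap with those of CEI and Epi/LRC.

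Inside most populations the most markers of differentiated cells went with the lowest level of the ribosomal protein genes. In 7 of the 8 populations the replicate with the highest summed markers was the replicate with the lowest ribosomal protein level. SCN replicate 1 had 650 FPKM of markers, the other SCN samples 60.9, 104 and 388 FPKM. CEI replicate 2 had 1132 FPKM, the other CEI samples 178 and 311 FPKM. In Epi/LRC replicate 3 had 431 FPKM, the others 149 and 55.3 FPKM. In QC the samples had 223, 377 and 53.7 FPKM, and replicate 2 was the highest in markers and the lowest in ribosomal protein genes. The fewest markers did not always go with the highest level. QC replicate 3, the lowest of QC in markers, was at 2.54%, against 3.84% in QC replicate 1. Protophlo samples had 683, 821, 337 and 3694 FPKM, which spans the range of NSCs. The markers were low in CSCs, at 37.7 to 80.9 FPKM, where CASP1 and APL were listed at 0 in every sample, and lay between 40.9 and 313 FPKM in Xyl, the exception to the order. In Epi/LRC APL was listed at 0 in every sample. Between 1 (CSCs) and 4 (SCN and Protophlo) of the 8 markers had a mean above that of NSCs in a stem cell population. Different markers led the sum by mean, SMB in CSCs (57.5 FPKM), CASP1 in Protophlo (764 FPKM) and COBL9 in SCN (146 FPKM). The sum is therefore not a measure of 1 kind of cell. The part of differentiated cells in the results was not tested.

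**Figure D2:**
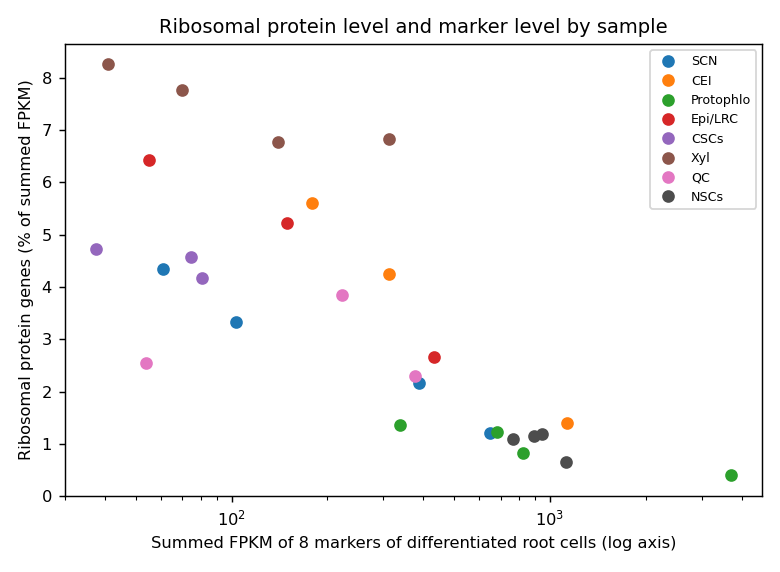
Summed FPKM of 8 markers of differentiated root cells (x axis, log scale) and the 46 ribosomal protein genes as a percent of the summed FPKM (y axis) in each of the 28 samples, coloured by population. Samples at the right, among them Protophlo replicate 4 at 3694 FPKM and CEI replicate 2 at 1132 FPKM, are low on the y axis, while the 4 Xyl samples lie at 6.76% or above.

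Each population was compared with NSCs for every gene by limma. The scale was log2(FPKM + 1), on which changes of low genes come out too small. A gene was called at a p-value, adjusted by Benjamini-Hochberg over all 22694 genes tested, under 0.06 and a difference of more than 1 on the log2 scale. Pairs of paralogs were called by the same rule, with p-values adjusted over genes and pairs together. In Xyl 45 of the 46 ribosomal protein genes rose, against 20.0% of all genes tested, and the median difference of the 46 was 3.32, beside -0.20 for all genes. In CSCs 40 rose (22.6% of all genes) and 1 fell (18.3%), with a median of 2.47 beside 0.08. In Epi/LRC 39 rose (12.5% of all genes), with a median of 2.45 beside -0.05. These 3 populations shared 38 genes that rose in each of them. The share of all genes that rose in each of the 3 was not counted.

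Fewer genes passed in the other populations. In CEI 37 rose (5.37% of all genes), with a median of 1.99 beside 0.02, in QC 25 rose (9.31%) and 1 fell (9.49%), with a median of 1.68 beside 0.12, and in SCN 24 rose (5.52%) and 1 fell (8.89%), with a median of 1.56 beside 0.01. In Protophlo 0 rose by limma (3.51% of all genes) and 1 fell (10.5%), with a median of -0.08 beside -0.23, and at an unadjusted p under 0.05 the counts were 1 and 3. In CEI, Epi/LRC and Xyl 0 fell by limma (5.04%, 16.6% and 23.5% of all genes), with 0, 1 and 0 at an unadjusted p under 0.05. The ribosomal protein genes with every sample above every NSC sample numbered 45 in Xyl (26.9% of all genes), 42 in CSCs (27.5%), 39 in Epi/LRC (19.0%), 35 in QC (20.8%), 23 in CEI (12.2%), 19 in SCN (7.06%) and 1 in Protophlo (8.58%). Those with every sample below every NSC sample numbered 1 in SCN (13.8% of all genes), 1 in Protophlo (17.1%), 1 in CSCs (24.6%) and 1 in QC (17.7%), and 0 in CEI (13.5%), Epi/LRC (22.9%) and Xyl (30.1%). All comparisons use the same NSC samples. All 46 genes varied among the 8 populations by the moderated F test, against 61.2% of all genes.

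These counts depended on single libraries in SCN, CEI and QC. The 24 genes of SCN were 8 without SCN replicate 2, 10 without SCN replicate 3 and 6 without NSCs replicate 4. The 37 genes of CEI were 4 without CEI replicate 1, 6 without CEI replicate 3, 24 without NSCs replicate 3 and 11 without NSCs replicate 4. The 25 genes of QC were 10 without QC replicate 1, 16 without QC replicate 3 and 7 without NSCs replicate 4. Without the library of each stem cell population that was highest in the markers of differentiated cells, an alternative chosen after seeing the data, 40 genes rose in SCN, 43 in CEI, 1 in Protophlo, 44 in Epi/LRC, 42 in CSCs, 45 in Xyl and 36 in QC. In every stem cell population but Xyl, the library left out was also the lowest in ribosomal protein level. NSCs replicate 4, the highest of NSCs in markers and the lowest in level, was kept. The choice itself therefore favours higher counts, which do not test the part of differentiated cells. Division of the FPKM by size factors shifted the median of all genes by -0.30 in CSCs, -0.22 in QC, -0.14 in Epi/LRC, -0.11 in SCN and in Xyl and 0.10 in Protophlo. The median of the 46 genes was then 1.90 in CSCs, 1.31 in QC, 2.21 in Epi/LRC, 1.38 in SCN, 3.10 in Xyl and 0.11 in Protophlo, where its sign changed. The share of higher genes among all genes called was 38.1% with size factors and 55.2% without them in CSCs, 29.7% and 49.5% in QC, and 35.8% and 25.1% in Protophlo.

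**Figure D3:**
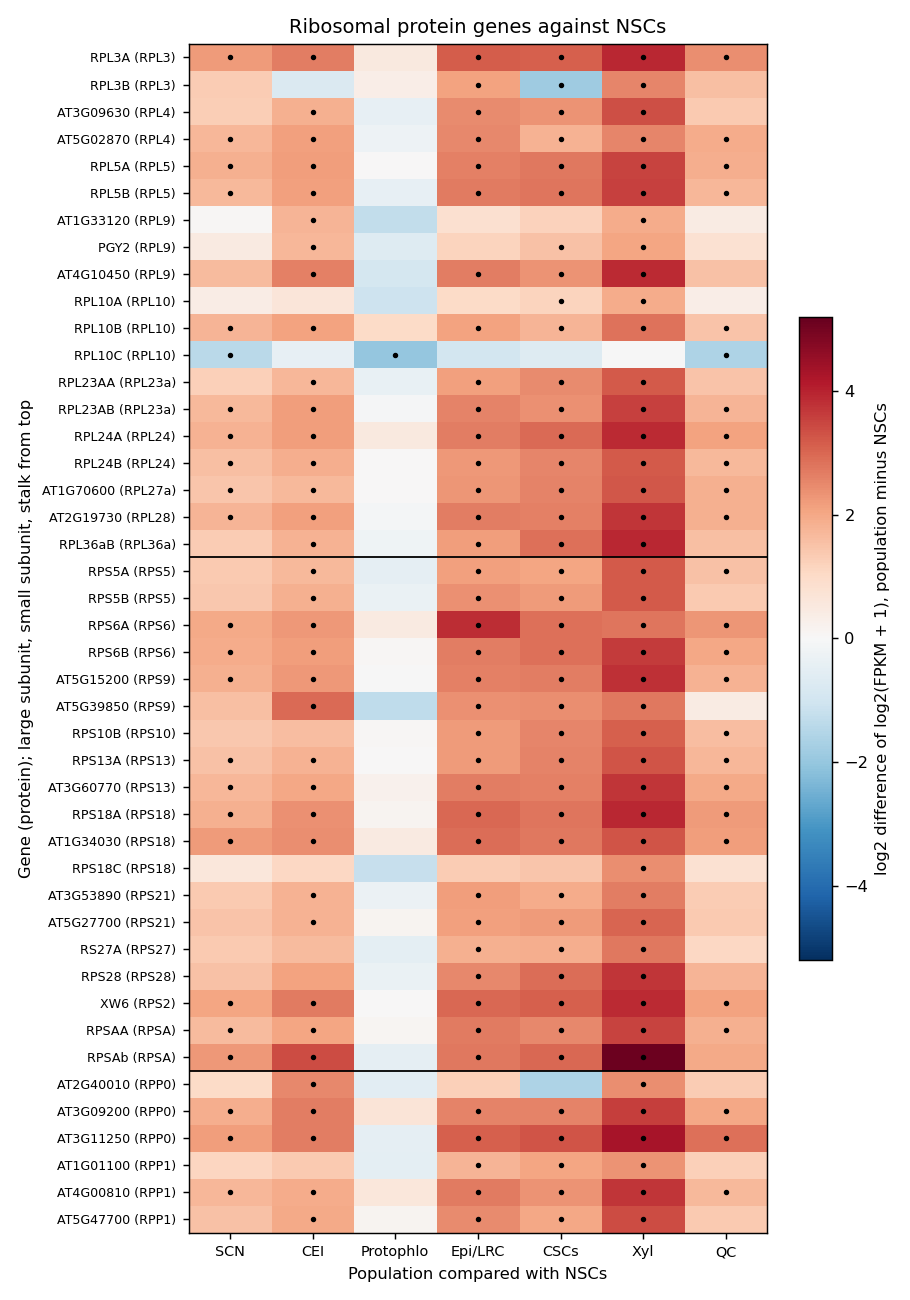
Difference of log2(FPKM + 1) between each stem cell population and NSCs (color, red higher in the population) for 44 of the 46 ribosomal protein genes (rows, with the protein in brackets, lines between large subunit, small subunit and stalk). Dots mark calls at an adjusted p-value under 0.06 and a difference of more than 1. The Xyl column has dots for 43 of these 44 genes, the Protophlo column is pale, and RPL10C stands out as blue in SCN, Protophlo and QC.

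Across the list 23 genes rose in all 6 populations other than Protophlo, 2 in 5 of them, 10 in 4, 4 in 3, 4 in 2 and 2 in 1. RPL10C rose in 0. By mean level 40 genes were highest in Xyl, 3 in CEI, 2 in Epi/LRC and 1 in NSCs, and the lowest mean was in NSCs for 25 genes, in Protophlo for 19 and in CSCs for 2. These counts were not made over all genes, and the calls in different populations share the same NSC samples. The ratio of mean FPKM in Xyl to that in NSCs had a median of 9.60 over the 46 genes and was above 5 in 41 of them. Means over the 28 samples had a median of 536 FPKM, and 40 genes had a mean above 100 FPKM.

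Of the 19 large subunit genes, 18 rose in Xyl, 16 in CSCs, 16 in CEI, 15 in Epi/LRC, 10 in SCN and 10 in QC. AT1G70600 encodes RPL27a, a protein of the large subunit, and had the highest mean of the class. It was at 2944, 3779.7, 3805 and 3939 FPKM in Xyl, against 532, 496, 339.9 and 233 FPKM in NSCs. The log2 difference was 3.24 (SE 0.50, limma adjusted p = 1.67e-05), and every Xyl sample was above every NSC sample. Its call in SCN was lost under most of the alternatives run, that in CEI without CEI replicate 1, CEI replicate 3 or NSCs replicate 2, 3 or 4, and that in QC without QC replicate 3 or NSCs replicate 4.

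RPL10C, also known as SAG24, was the large subunit gene that rose in no population, and it fell in QC, Protophlo and SCN. RPL10 sits at the interface with the small subunit and is among the last proteins to join the large subunit. RPL10C was at 758, 405 and 516 FPKM in QC, against 1056, 1484, 2412 and 1989.5 FPKM in NSCs. Every QC sample was below every NSC sample, and the log2 difference was -1.61 (SE 0.43, limma adjusted p = 0.0115). In Protophlo, at 355, 343, 339 and 689.6 FPKM, it was -2.01 (SE 0.40, limma adjusted p = 0.00134). In SCN, at 260.4, 1038, 989.9 and 597 FPKM, it was -1.39 (SE 0.40, limma adjusted p = 0.0212). The QC call was lost without QC replicate 2, and the SCN call without SCN replicate 1, the SCN library highest in markers of differentiated cells, and without NSCs replicate 3 or NSCs replicate 4. In Xyl, where 45 other genes rose, RPL10C was at 2078, 1413, 1509 and 1689.7 FPKM, a difference of -0.00 (SE 0.40). The replicate highest in markers of differentiated cells had the highest RPL10C level of its population in CEI and Protophlo and the lowest in SCN, Epi/LRC, CSCs, Xyl and QC.

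RPL10C held 22.2 ± 11.3% (SD, n = 4) of the summed FPKM of the 46 genes in NSCs and 2.60 ± 0.63% (SD, n = 4) in Xyl. It was the highest of the RPL10 genes in 17 of the 28 samples, among them every NSC sample, and RPL10A was the highest in the other 11. Of the FPKM of the 3 RPL10 genes, RPL10C held 46.0%, 38.3% and 53.2% in the QC samples, against 62.6%, 72.0%, 83.4% and 85.8% in the NSC samples. RPL10B, the lowest of the 3, was at 31.3, 29.1 and 13.1 FPKM in QC, against 10.2, 6.03, 10.7 and 4.69 FPKM in NSCs. The difference RPL10B over RPL10C was higher in all 7 populations than in NSCs, by 2.43 (CSCs) to 3.14 (SCN) on the log2 scale, and the call was lost in CEI alone, without CEI replicate 1 or CEI replicate 3. The share of RPL10B in RPL10, at 0.635% to 3.92% in stem cell samples, lay above that of every NSC sample, 0.202% to 0.602%.

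RPL3A and RPL3B parted in CSCs, in CEI and, by less, in Xyl. RPL3 reaches into the peptidyl transferase center of the large subunit. RPL3A was at 1603, 1563 and 1357 FPKM in CSCs, against 235, 246, 187 and 81.5 FPKM in NSCs, a log2 difference of 3.12 (SE 0.53, limma adjusted p = 8.47e-05). RPL3B was at 0.0990, 10.2 and 3.87 FPKM in CSCs, against 16.4, 15.8, 12.3 and 9.65 FPKM in NSCs, and fell by 1.87 (SE 0.63, limma adjusted p = 0.0209). The 2 groups of RPL3B overlapped, and the call was lost without CSCs replicate 1. The difference RPL3A over RPL3B was larger in CSCs than in NSCs by 4.98 (SE 0.53, limma adjusted p = 1.22e-07) and in CEI by 3.41 (SE 0.53, limma adjusted p = 0.000156). RPL3B was at 11.8, 4.37 and 7.53 FPKM in CEI, where RPL3A was at 1763, 420.1 and 1715 FPKM. RPL3B held 0.710 ± 0.299% (SD, n = 3) of the RPL3 level in CEI and 7.33 ± 2.18% (SD, n = 4) in NSCs. In Xyl, at 69.6, 69.8, 84.5 and 112 FPKM, RPL3B rose and had its highest mean, but it rose by less than RPL3A. The difference RPL3A over RPL3B was larger in Xyl than in NSCs by 1.39 (SE 0.49, limma adjusted p = 0.0223), a call lost with a pseudocount of 0.1, without NSCs replicate 4 and without the libraries highest in markers of differentiated cells. This pair had the largest moderated F of the 27 pairs (20.2, limma adjusted p = 3.84e-07).

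Of the other large subunit genes, RPL24B was the higher of its pair in all 28 samples. RPL24B encodes RPL24, which in Arabidopsis is known for its part in reinitiation of translation. The RPL5, RPL23a and RPL24 pairs did not pass the F test among populations (limma adjusted p = 0.552, 0.24 and 0.253). The RPL4 pair passed it (F 4.97, limma adjusted p = 0.00345), with AT3G09630 at a mean of 38.3% of the RPL4 level in Xyl, 34.1% in CSCs and 26.0% in NSCs. AT4G10450 was the lowest of the RPL9 genes by mean. The difference AT1G33120 over AT4G10450 was -1.94 in Xyl, -1.82 in Epi/LRC and -1.60 in SCN relative to NSCs, and the SCN call was lost without SCN replicate 2, SCN replicate 3, NSCs replicate 1 or NSCs replicate 4.

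All 21 small subunit genes rose in Xyl, 19 in CSCs, 19 in Epi/LRC, 16 in CEI, 12 in QC and 11 in SCN. RPS6A was the gene with the largest difference in Epi/LRC. RPS6 is the small subunit protein that is phosphorylated by the S6 kinase downstream of TOR. RPS6A was at 3499, 4419.8 and 1679.5 FPKM in Epi/LRC, against 279, 257, 196 and 122 FPKM in NSCs, a log2 difference of 3.86 (SE 0.49, limma adjusted p = 4.65e-06). Its Epi/LRC mean of 3199 FPKM exceeded its Xyl mean of 1446 FPKM, unlike that of its paralog. RPS6B was at 627, 824 and 279.8 FPKM in Epi/LRC, and at 965, 988, 1110.0 and 1081 FPKM in Xyl, against 102, 107, 104 and 40.8 FPKM in NSCs. RPS6B held 15.1 ± 0.724% (SD, n = 3) of the RPS6 level in Epi/LRC and 42.1 ± 4.26% (SD, n = 4) in Xyl, against 29.0 ± 4.12% (SD, n = 4) in NSCs. Epi/LRC and Xyl samples lay on either side of NSCs without overlap. The difference RPS6A over RPS6B was 1.20 larger in Epi/LRC than in NSCs (SE 0.27, limma adjusted p = 0.00182). In Xyl it was -0.83 (SE 0.25, limma adjusted p = 0.00798), short of a difference of 1.

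RPSAb had the largest difference of the list. RPSA is the small subunit protein related to the laminin receptor of animals. RPSAb was at 132, 219, 249 and 258 FPKM in Xyl, against 6.06, 6.60, 4.75 and 3.39 FPKM in NSCs, a log2 difference of 5.10 (SE 0.69, limma adjusted p = 3.84e-06) and 41.3 times the mean of NSCs. Its paralog RPSAA was the higher gene in all 28 samples, at 2990.1, 3058, 3339.8 and 3720.1 FPKM in Xyl, against 392, 401, 275 and 151 FPKM in NSCs. RPSAb held 6.08 ± 1.24% (SD, n = 4) of the RPSA level in Xyl and 1.76 ± 0.299% (SD, n = 4) in NSCs. The difference RPSAA over RPSAb was -1.59 in Xyl (SE 0.39, limma adjusted p = 0.00177). RPSAb also had the largest difference in CEI and in SCN. It was at 122, 22.5 and 85.1 FPKM in CEI, all above NSCs, a log2 difference of 3.38 (SE 0.75, limma adjusted p = 0.00607), and the call was lost without CEI replicate 1. In SCN, at 10.3, 103, 31.1 and 17.8 FPKM, the difference was 2.26 (SE 0.69, limma adjusted p = 0.0313), a call lost without SCN replicate 2, SCN replicate 3, NSCs replicate 3 or NSCs replicate 4. The RPSAb share of 4.99%, 4.90% and 5.00% was nearly equal in the 3 CEI samples. The difference RPSAA over RPSAb in CEI, -1.33 (SE 0.42, limma adjusted p = 0.0453), was lost without CEI replicate 1, CEI replicate 3, NSCs replicate 1, NSCs replicate 2 or NSCs replicate 3.

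RPS18C held a smaller part of RPS18 in every stem cell population than in NSCs. RPS18 sits in the head of the small subunit, and loss of the Arabidopsis gene RPS18A gives pointed first leaves. RPS18C held 6.26% to 14.5% of the RPS18 level in the stem cell samples, against 20.0% to 27.1% in the NSC samples, with no overlap. Both this share and that of RPL10B parted all stem cell samples from all NSC samples, Protophlo included. Of the 39 genes that have a paralog in the list, no other had a share that did so. The difference RPS18A over RPS18C was larger in all 7 populations than in NSCs, by 1.27 in SCN, 1.31 in CEI and in Protophlo, 1.33 in CSCs, 1.43 in QC, 1.51 in Xyl and 1.64 in Epi/LRC on the log2 scale, with the call lost in CEI without CEI replicate 3 and in CSCs without CSCs replicate 1. RPS18C was at 371, 263, 415 and 428 FPKM in Xyl, against 71.2, 86.4, 87.7 and 39.2 FPKM in NSCs, its only call. AT1G34030 was the highest RPS18 gene in all SCN and Protophlo samples and RPS18A in all Xyl samples.

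**Figure D4:**
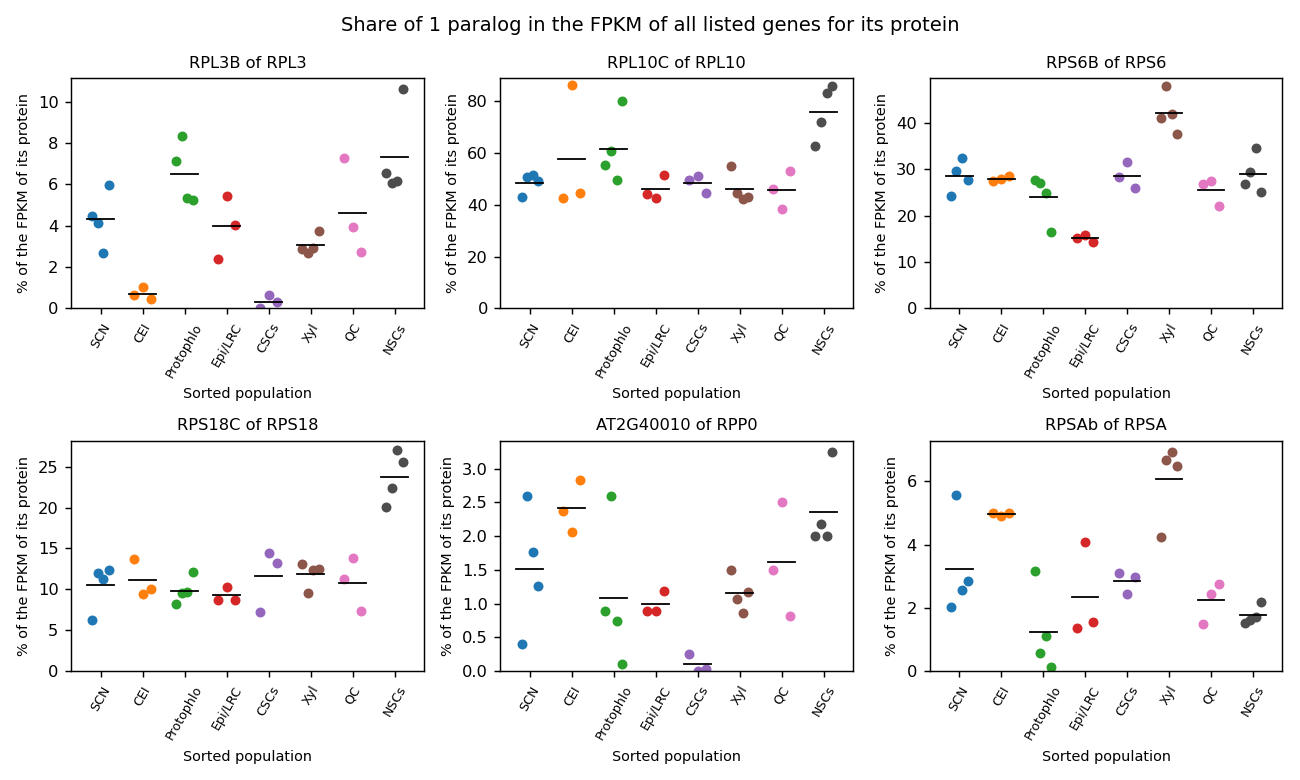
Share of 1 paralog in the FPKM of all listed genes for its protein (y axis, percent) by population (x axis). Points are samples and bars are means. RPL3B is near 0 in CEI and CSCs, RPS6B is low in Epi/LRC and high in Xyl, and RPS18C is at 20.0% to 27.1% in NSCs and at no more than 14.5% in any stem cell sample.

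The 6 stalk genes rose in Xyl, 5 of them in CSCs, Epi/LRC and CEI and 3 in SCN and QC. RPP0 is the core of the stalk to which the small acidic proteins bind. AT3G09200, the highest of the RPP0 genes in all 28 samples, was at 1888, 2026, 2063 and 2128 FPKM in Xyl, against 235, 222, 156 and 89.7 FPKM in NSCs, a log2 difference of 3.61 (SE 0.51, limma adjusted p = 5.68e-06). AT3G11250 had the largest difference of the list in CSCs and in QC. It was at 185, 141 and 178 FPKM in CSCs, against 20.8, 20.3, 13.9 and 12.7 FPKM in NSCs, a log2 difference of 3.26 (SE 0.54, limma adjusted p = 5.24e-05). In QC, at 149, 101 and 138 FPKM, it was 2.87 (SE 0.54, limma adjusted p = 0.000632).

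AT2G40010, the lowest of the RPP0 genes, parted from both of its paralogs in CSCs, Epi/LRC and Xyl, by the most in CSCs. It was at 2.76, 0.0935 and 0.335 FPKM in CSCs, against 5.24, 5.40, 3.46 and 3.43 FPKM in NSCs. All CSC samples were below all NSC samples, but the difference of -1.59 (SE 0.75, limma adjusted p = 0.0946) did not pass. The difference AT2G40010 over AT3G11250 was -4.85 in CSCs relative to NSCs (SE 0.50, limma adjusted p = 8.42e-08), and AT2G40010 over AT3G09200 was -4.16 (SE 0.49, limma adjusted p = 5.93e-07). AT2G40010 over AT3G11250 was also lower in Xyl (-1.89, SE 0.46, limma adjusted p = 0.00168), Epi/LRC (-1.88, SE 0.50, limma adjusted p = 0.0064) and QC (-1.57, SE 0.50, limma adjusted p = 0.0302) than in NSCs. AT2G40010 over AT3G09200 was lower in Epi/LRC (-1.36, SE 0.49, limma adjusted p = 0.0372) and Xyl (-1.21, SE 0.45, limma adjusted p = 0.0308). Without NSCs replicate 4 the QC call and both calls against AT3G09200 outside CSCs were lost, as they were with a pseudocount of 0.1, which also ended the Epi/LRC call against AT3G11250. Single libraries of the stem cell populations also ended calls, which were QC replicate 3 for QC, Xyl replicate 3 for AT3G09200 in Xyl, and Epi/LRC replicate 1 or Epi/LRC replicate 2 for AT3G09200 in Epi/LRC. In CEI AT2G40010 was at 60.7, 9.08 and 42.5 FPKM and rose by 2.50 (SE 0.75, limma adjusted p = 0.0351), a call lost without CEI replicate 1, CEI replicate 3, NSCs replicate 3 or NSCs replicate 4. In the RPP1 family no gene led throughout. AT5G47700 was the highest in 10 samples and AT1G01100 in all 4 NSC samples, and the difference AT1G01100 over AT4G00810 was -1.36 in Xyl and -1.10 in Protophlo relative to NSCs.

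Over all 27 pairs of paralogs, the difference within the pair was called in 11 in Xyl, 10 in Epi/LRC, 8 in CSCs, 7 in SCN, 7 in QC, 6 in CEI and 6 in Protophlo. Apart from the pseudocount, a difference within a pair does not depend on how a sample is scaled. The 6 pairs of CEI were 2 without CEI replicate 3, the 7 pairs of QC 4 without QC replicate 2, and the 7 pairs of SCN 4 without NSCs replicate 4. Of the 27 pairs 16 were called in at least 1 population, a count not made over all genes, and 19 varied by the F test, against 61.2% of all genes. The 11 pairs with no call included RPL5A and RPL5B, RPS5A and RPS5B, RPS13A and AT3G60770, and AT3G53890 and AT5G27700 (RPS21). The highest paralog was the same gene in all 28 samples in 11 of the 17 proteins. Paralogs of the same protein were 71.9% to 94.8% identical over their aligned transcripts, with AT1G33120 and PGY2 the most alike.

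Genes that build and use ribosomes were counted in the same fit. Of all genes tested, 3.51% (Protophlo) to 22.6% (CSCs) rose and 5.04% (CEI) to 23.5% (Xyl) fell. Of 27 genes of ribosome biogenesis 26 rose in Xyl, 25 in CSCs, 21 in Epi/LRC, 19 in CEI, 11 in SCN and 8 in QC. The 21 genes of Epi/LRC were 13 without Epi/LRC replicate 2. The 19 genes of CEI were 5 without CEI replicate 1, 4 without CEI replicate 3 and 9 without NSCs replicate 4. The 11 genes of SCN were 20 without SCN replicate 1, 6 without SCN replicate 2 and 7 without SCN replicate 3 or NSCs replicate 4, and the 8 genes of QC were 15 without SCN replicate 1 and 5 without QC replicate 1. In Protophlo 0 rose and 0 fell by limma, with 0 and 7 at an unadjusted p under 0.05. FIB2, a fibrillarin that methylates ribosomal RNA, averaged 1027 FPKM in Xyl and 15.4 FPKM in NSCs, a log2 difference of 6.13 (SE 0.84, limma adjusted p = 3.96e-06).

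Of 18 genes of translation factors 14 rose and 2 fell in Xyl (20.0% and 23.5% of all genes). In CSCs 12 rose (6 with size factors) and 1 fell (22.6% and 18.3% of all genes). The counts of 9 in Epi/LRC, 8 in CEI, 7 in SCN and 6 in QC were 5, 1, 2 and 2 with the most influential library of each left out, which was NSCs replicate 4 in Epi/LRC (and, with the same count, Epi/LRC replicate 2), in SCN and in QC, and CEI replicate 1 or CEI replicate 3 in CEI. In Protophlo 0 rose by limma (2 at an unadjusted p under 0.05) and 1 fell. In SCN 1 also fell. The genes that fell encode eIF5A. AT1G69410 fell in Xyl (log2 difference -2.57, SE 0.43, limma adjusted p = 4.72e-05), in Protophlo (-1.69, SE 0.43, limma adjusted p = 0.0103) and in SCN (-1.24, SE 0.43, limma adjusted p = 0.0582), where the call was lost with any NSC replicate left out. AT1G13950 fell in Xyl (-2.27, SE 0.86, limma adjusted p = 0.0332). With Xyl replicate 4 or NSCs replicate 4 left out, 1 of the 2 fell in Xyl. The largest difference was that of AT1G13950 in CSCs, with a mean of 3.53 FPKM in CSCs and 62.4 FPKM in NSCs (log2 difference -4.13, SE 0.93, limma adjusted p = 0.00108). Of 5 genes of the TOR pathway 0 rose in any population, by limma or at an unadjusted p under 0.05. With 3.51% to 22.6% of all genes risen, 0 of 5 says little about the pathway. By limma 2 of the 5 fell in Xyl and in Epi/LRC (23.5% and 16.6% of all genes), and 1 in each other population. S6K1, the kinase of RPS6, fell in all 7 populations, most in Xyl, with a mean of 17.2 FPKM in Xyl and 131 FPKM in NSCs (log2 difference -2.89, SE 0.37, limma adjusted p = 1.75e-06). The 265 other genes whose annotation says ribosomal protein are a mixed list that also holds proteins of organelles. Of these, 212 rose in Xyl and 10 fell (20.0% and 23.5% of all genes). In CSCs 201 rose and 9 fell (22.6% and 18.3%), and in Epi/LRC 187 rose and 10 fell (12.5% and 16.6%). In CEI 142 rose and 3 fell (5.37% and 5.04%), and in QC 106 rose and 7 fell (9.31% and 9.49%). In SCN 102 rose and 8 fell (5.52% and 8.89%), and in Protophlo 1 rose and 9 fell (3.51% and 10.5%). The risen genes numbered 12 in CEI without CEI replicate 1, 15 without CEI replicate 3 and 50 without NSCs replicate 4. In QC they numbered 39 without QC replicate 1, 70 without QC replicate 2, 66 without QC replicate 3 and 39 without NSCs replicate 4. In SCN they numbered 158 without SCN replicate 1, 30 without SCN replicate 2, 41 without SCN replicate 3 and 27 without NSCs replicate 4. In Protophlo 2 rose without Protophlo replicate 4, and 14 fell without SCN replicate 1, a library that enters that comparison through the shared spread.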

How the data were processed

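RNA-Seq libraries (SMARTer low input kits) of 28 samples in 8 populations were used. Per the labels the authors used TopHat2 2.0.13 and Cufflinks 2.1.1 with TAIR10, and deposited FPKM per gene for 33201 genes. Any further normalization between samples is not given in the sources used here. The methods name Bowtie, Tuxedo and Rsubread. The treatment of reads that map to several places is not given in the sources used here, which matters for paralogs. Every column had a sample. The CEI columns were matched by the initial of their label. Low FPKM values of genes with 1 transcript step by whole reads (at a transcript length reduced by 199 bases), which gave the implied fragments per library. Between 36.8% and 60.7% of values of 0.5 to 10 reads lay within 0.05 of a whole read.

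Values were transformed to log2(FPKM + 1). Genes reaching an FPKM of 1 in 3 or more samples, 22694 in number, were fitted over all samples in limma 3.58.1 (empirical Bayes with a trend, R 4.3.3), with 1 mean per population. PoissonSeq, the test of the study, takes counts and was not used. The difference of log2(FPKM + 1) within each pair of paralogs was added as a row to a second fit of the same genes. P-values of genes were adjusted over the genes alone, and those of pairs over genes and pairs together. The fit was tested on simulated data with independent noise for each gene and sample. That simulation holds no shifts of whole libraries, so it says nothing about them. Values in every sample are given for the gene with the highest mean of the large subunit and of the stalk, the largest called differences of each population and the 5 pairs of largest F. RPL10B, RPSAA, RPS18C, the RPL4, RPL9 and RPL24 genes and AT1G01100 were added after their values were seen. The results of 2 of the 46 genes, which enter the counts, are not reported here. The genes and lists were chosen with earlier results of these data known. The design text calls the replicates biological, and no label gives a batch.

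Alternatives were TPM, size factors (10810 genes above 0 in every sample), a pseudocount of 0.1, no filter on low values, separate fits of each population and NSCs, a replicate block (chosen after seeing the data, also for SCN and NSCs alone), no trend, an adjusted p-value under 0.05, each replicate left out in turn and, chosen after seeing the data, the library of each population highest in differentiated-cell markers left out. Gene names and sequences come from RefSeq (TAIR10.1), where a locus was found for 32489 of the 33201 identifiers. Genes with no symbol of a ribosomal protein there keep their identifier, and the protein each encodes was assigned from its annotation. Python 3.11.15 and Biopython were used for sequences.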

Additional observations from a re-analysis of the deposited data

Results flagged for a closer look

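In groups of 4 samples, the highest or lowest sample was set against the others by Dixon's test at the 95% level for 52 sets of values, and 3 sets had such a sample, where chance gives about 1 in 20. AT1G70600 (RPL27a) in Xyl was lowest in replicate 1, at 11.52 on the log2(FPKM + 1) scale with the nearest sample at 11.88. RPL10C in Protophlo was highest in replicate 4, at 9.43 with the nearest sample at 8.48. RPS6B in NSCs was lowest in replicate 4, at 5.39 with the nearest sample at 6.69.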

How the results depend on the processing

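Of 111 called single values, 4123 values under alternatives comprised 3952 that kept their direction and side of the threshold, 171 that kept their direction and lost the call, and 0 that changed direction. With size factors 1 gene rose in Protophlo, 1 fell in Epi/LRC, 3 fell in CSCs and 15 rose in QC, and the mean summed level in CSCs was 3.16%. In summed level the Xyl samples then overlapped with those of CEI and Epi/LRC. With a pseudocount of 0.1, 2 genes fell in CSCs. With each population fitted with NSCs alone, 0 fell in SCN, 22 rose in CEI, 1 rose and 2 fell in Protophlo, and 2 fell in CSCs. With the replicate block, 22 genes rose in CEI. Across the 90 same-numbered pairs of samples of different populations, the deviations from the group means correlated at a median of -0.015 (-0.40 to 0.33). Most of these pairs join different lines, so their median does not test SCN against NSCs. SCN and NSCs were sorted from the same line, and no label says whether a shared number marks a shared sort. Their 4 same-numbered pairs correlated at -0.012, 0.12, 0.056 and 0.11. SCN replicates 2, 3 and 4 correlated best with the NSC sample of their own number, and SCN replicate 1 with NSCs replicate 4. Of the NSC samples, replicate 2 alone correlated best with the SCN sample of its number. These values do not settle whether the numbers pair SCN with NSCs. A fit of SCN and NSCs alone with the replicate block was chosen after seeing the data. In it 33 genes rose, 1 fell and 8 pairs of paralogs were called, against 28, 0 and 8 without the block. Without the libraries highest in markers of differentiated cells, 40 genes rose and 0 fell in SCN, and 1 rose in Protophlo. Outside Xyl these libraries were also the lowest of their populations in ribosomal protein level. With each replicate left out in turn, 6 to 36 genes rose and 0 to 1 fell in SCN, 4 to 43 rose in CEI, 7 to 29 rose and 0 to 1 fell in QC, 1 to 2 fell in Protophlo, and 1 to 2 fell in CSCs, and the pairs of paralogs called were 4 to 8 in SCN, 2 to 7 in CEI, 4 to 9 in QC, 8 to 12 in Xyl, 7 to 10 in Epi/LRC, 6 to 9 in CSCs and 4 to 7 in Protophlo. In Xyl 45 genes rose in every such fit. The cause of these changes was not tested. FPKM carries no counts, so no counting error was given, and genes of a few FPKM such as AT2G40010 and RPL3B in CSCs rest on few reads.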
